A study of Mus musculus with 4 samples.

Results

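The interferon regulatory factor genes Irf1, Irf2, Irf3, Irf5, Irf7, Irf8 and Irf9 were examined in mouse T cells cultured under a Tc9 or under a Tc1 cytokine condition. They were picked by name, as members of the interferon regulatory factor family without Irf4, from the gene symbols of the platform annotation. All 7 were measured, each by 1 probe set, among 19505 genes. Total RNA was labelled with biotin and hybridised to 4 Affymetrix arrays, 2 of Tc9 cells and 2 of Tc1 cells, and each cell type has the array numbers 1 and 2. Tc9 cells are CD8 T cells with interleukin 9 as their signature cytokine, and Tc1 cells are the classical cytotoxic CD8 T cells, with interferon gamma as theirs. The sources used here give no cytokines, culture times, strain, age or cell source, and no label says whether the arrays are biological replicates, so the p-values measure only the spread between these arrays, which may be technical.

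Interferon regulatory factors are transcription factors that share an N-terminal DNA-binding domain, which recognises GAAA repeats such as those of the interferon-stimulated response element. Irf3, Irf7 and Irf5 are activated by phosphorylation downstream of nucleic acid sensors and Toll-like receptors. Irf9 joins STAT proteins in the complex ISGF3, which carries the type I interferon signal. Irf1 is induced by interferon gamma through a gamma-activated sequence, the site bound by STAT dimers, and drives many interferon gamma targets, while Irf2 competes for the same sites. Irf8, best known from myeloid and B cells, is also induced by interferon gamma and by T cell receptor signals. In CD8 T cells, Irf1 and Irf8 have been tied to type 1 effector function.

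The promoters of Irf1, Irf8 and Irf2 are shown because they hold the elements through which interferon signals are known to reach such genes, and because the first pair had the lowest Tc9 signals relative to Tc1 among the 7 genes while Irf2 had nearly equal ones. Each is the RefSeq window from 250 bases before to 50 bases after an annotated start site, build GRCm38.p6, plus strand, at chr11:53769764-53770063 for Irf1, chr8:120736108-120736407 for Irf8 and chr8:46739495-46739794 for Irf2, and start sites are counted as position 0. Capitals mark matches to the gamma-activated sequence TTCNNNGAA, the response element GAAANNGAAA and a degenerate NF-kappaB consensus.
Irf1: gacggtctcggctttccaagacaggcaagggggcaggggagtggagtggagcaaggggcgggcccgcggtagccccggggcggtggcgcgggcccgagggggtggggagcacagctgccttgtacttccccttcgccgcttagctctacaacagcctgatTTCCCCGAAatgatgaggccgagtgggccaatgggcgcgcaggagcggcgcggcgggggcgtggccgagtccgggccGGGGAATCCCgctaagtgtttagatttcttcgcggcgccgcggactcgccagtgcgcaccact
Irf8: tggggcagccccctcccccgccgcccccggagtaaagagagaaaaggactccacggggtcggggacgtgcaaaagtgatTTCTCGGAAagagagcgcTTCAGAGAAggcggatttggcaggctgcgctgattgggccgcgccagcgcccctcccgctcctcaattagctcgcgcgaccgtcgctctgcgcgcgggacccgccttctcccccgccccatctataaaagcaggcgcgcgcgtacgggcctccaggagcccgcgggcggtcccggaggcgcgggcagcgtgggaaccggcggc
Irf2: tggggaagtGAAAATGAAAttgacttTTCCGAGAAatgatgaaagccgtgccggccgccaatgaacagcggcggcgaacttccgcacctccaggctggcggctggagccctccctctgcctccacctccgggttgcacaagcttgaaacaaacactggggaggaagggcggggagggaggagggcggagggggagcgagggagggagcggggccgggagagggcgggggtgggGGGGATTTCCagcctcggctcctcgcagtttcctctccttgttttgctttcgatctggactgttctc

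In the Irf1 window the gamma-activated sequence TTCCCCGAA starts at position -90 and an NF-kappaB match, GGGGAATCCC, at -13. The Irf8 window holds gamma-activated matches, TTCTCGGAA at -171 and TTCAGAGAA at -153. In the Irf2 window the response element GAAAATGAAA starts at -241, the gamma-activated match TTCCGAGAA at -224 and the NF-kappaB match GGGGATTTCC at -17. Both strands were searched for TTCNNNGAA, GAAANNGAAA, the wider-spaced GAAANNNGAAA and the NF-kappaB consensus, and matches of different patterns can overlap. TTCNNNGAA was found for 3 of the 7 genes and for 9.55% of 27025 mouse genes with a promoter window, and GAAANNGAAA for 1 of the 7 and for 3.99% of genes. The NF-kappaB consensus was found for 2 of the 7 and for 9.55% of genes, and GAAANNNGAAA for 0 of the 7 and for 3.17%. Irf1, Irf8 and Irf9 have 2 windows each in the table, and the other windows of the 7 genes held no match. A match to these letters is a description of the window and was not tested as a binding site.

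Irf1 signal was lower in Tc9 cells. Its quantile normalised intensity was 1049 and 954 on the Tc9 arrays numbered 1 and 2, against 1894 and 1827 on the Tc1 arrays. Both Tc9 arrays lay well below both Tc1 arrays, and arrays of one cell type lay close together. The mean was 1001 ± 66.8 in Tc9 and 1860 ± 47.6 in Tc1 (SD, n = 2 each), a log2 change of -0.88 ± 0.13 (SE), or 1.85-fold lower in Tc9. Log2 changes here are Tc9 minus Tc1 on log2(intensity + 16), which understates the change of dim genes, and a gene was called at a Benjamini-Hochberg adjusted p under 0.05 over all 19505 genes in limma. Irf1 passed with an adjusted p = 0.0425, close to the threshold, and a 95% interval of -1.19 to -0.58. Of all genes, 0.179% were called lower in Tc9 and 0.385% higher, and Irf1 was the only one of the 7 genes called in either direction. The difference was -0.84 between the arrays numbered 1 and -0.93 between those numbered 2, and the ratio of deposited values, Tc9 over Tc1, was 0.518 and 0.523. Of all genes, 0.518% had a more negative log2 change. The call was lost in limma with the values as deposited (adjusted p = 1.00), with median centring (0.108) and with a pseudocount of 64 (0.0506). It was also lost without the intensity trend (limma adjusted p = 0.134) and with the robust variance model (0.0534). The log2 change lay between -0.95 and -0.82 over all 17 alternatives. Filters, variance models, blocks and the probe set rule leave it at -0.88 by design. Only the scalings, pseudocounts and arrays left out could move it. The fit as deposited left the arrays unscaled and gave all genes of like intensity one spread. Its SE for Irf1 was 0.68, against 0.13 in the main fit.

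Irf8 had a log2 change of similar size but was not called. Its intensity was 1458 and 927 on the Tc9 arrays numbered 1 and 2, against 2367 and 1832 on the Tc1 arrays. Every Tc9 value lay below every Tc1 value, and in both cell types the array numbered 1 was the higher one. The mean was 1192 ± 376 in Tc9 and 2100 ± 378 in Tc1 (SD, n = 2 each), a log2 change of -0.83 ± 0.23 (SE, 95% interval -1.38 to -0.29, limma adjusted p = 0.375, unadjusted p = 0.00846). At an unadjusted p under 0.05, 2.34% of all genes were lower in Tc9. Within the numbers the difference was -0.69 and -0.97, and the deposited ratio of Tc9 to Tc1 was 0.580 and 0.509. Groups that did not overlap, with Tc9 lower, were found for 15.1% of all genes, and for Irf1 and Irf8 among the 7.

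**Figure D1:**
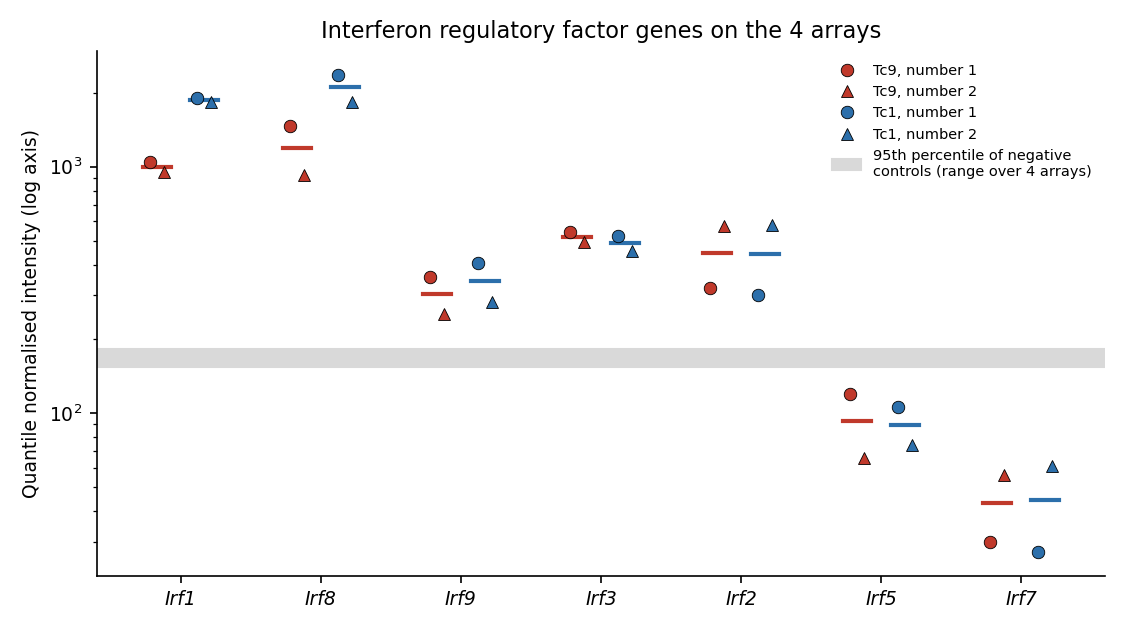
Quantile normalised intensity (log axis) of the 7 genes on each array, Tc9 in red left of Tc1 in blue, circles for number 1 and triangles for number 2, with bars at the group means of n = 2. The grey band spans the 95th percentile of the negative controls over the 4 arrays, 153 to 182; Irf5 and Irf7 lie under it, and Irf1 and Irf8 have no Tc9 value within the Tc1 range. Levels of different probe sets cannot be compared with each other.

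The deposited values of the arrays numbered 1 and of those numbered 2 differed in form. Their median was 37.9 on the Tc9 array and 37.1 on the Tc1 array numbered 1, against 57.1 on the Tc9 array and 57.3 on the Tc1 array numbered 2. They were written with a median of 10 digits on both arrays numbered 1 and of 7 digits on both numbered 2. With the number as a block, Irf1 (limma adjusted p = 7.82e-38) and Irf8 (1.24e-36) were both called lower, against a background of 7.37% of genes lower and 6.34% higher. These p-values rest on an infinite prior, which gives all genes of like intensity one spread. Without the intensity trend the blocked adjusted p was 0.000421 for Irf1 and 0.00105 for Irf8, with 3.41% of genes called lower. The other 5 genes were not called with the block, with or without the trend.

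Irf2, which competes with Irf1 for DNA sites, had 322 and 574 on the Tc9 arrays numbered 1 and 2, against 302 and 578 on the Tc1 arrays. The values split by number and not by cell type. The log2 change was 0.04 ± 0.36 (SE, limma adjusted p = 1.00), with a 95% interval of -0.80 to 0.88. That interval holds a rise as large in size as the change of Irf8, and its lower bound lies just short of the change of Irf8 itself. Within the numbers the differences were 0.09 and -0.01.

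Irf3, the constitutive factor activated by the kinase TBK1, had 544 and 493 in Tc9 against 523 and 455 in Tc1. The groups overlapped. Its log2 change was 0.08 ± 0.16 (SE, 95% interval -0.30 to 0.47, limma adjusted p = 1.00), an interval narrower than those of the other genes except Irf1. Irf9, the DNA-binding subunit of ISGF3, had 358 and 253 in Tc9 against 405 and 283 in Tc1. The Tc9 array was the lower one within each number, with differences of -0.17 and -0.16, but the numbers differed by more, and the groups overlapped. The log2 change of Irf9 was -0.16 ± 0.25 (SE, 95% interval -0.75 to 0.42, limma adjusted p = 1.00; with the block 0.429).

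Irf5, a factor of inflammatory cytokine genes in myeloid cells, and Irf7, the amplifier of type I interferon production, were near background. Irf5 had 119 and 65.4 in Tc9 against 105 and 74.1 in Tc1, and Irf7 had 30.0 and 55.8 in Tc9 against 27.3 and 61.1 in Tc1. Neither gene exceeded the 95th percentile of the 5222 negative control probe sets on any of the 4 arrays, so these values say little about a change. Their log2 changes were 0.01 ± 0.32 and -0.01 ± 0.35 (SE, limma adjusted p = 1.00 for both). The other 5 genes exceeded it on every array.

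**Figure D2:**
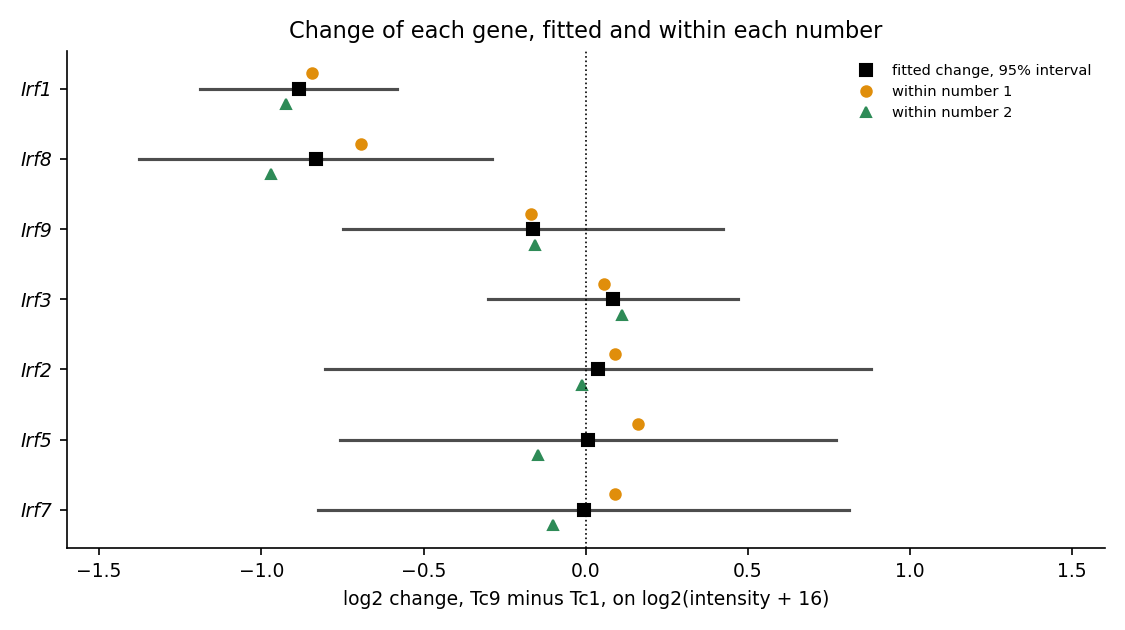
The log2 change of each gene, Tc9 minus Tc1, on log2(intensity + 16). Squares with lines are the fitted change and its 95% interval, orange circles the difference between the arrays numbered 1 and green triangles between those numbered 2; only the intervals of Irf1 and Irf8 exclude 0.

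For most of the 7 genes, as for most of all genes, the array number accounted for more of the variation than the cell type. Irf2 averaged 0.85 higher (log2) on the arrays numbered 2 than on those numbered 1, a size exceeded by few genes, since 98.6% of all genes differed less. Irf7 was 0.74 higher, while Irf5, Irf8 and Irf9 differed by -0.58, -0.51 and -0.48. Of the sum of squares over the 4 arrays, cell type held 98.7% for Irf1 and 71.6% for Irf8, while number held 99.4% for Irf2, 98.3% for Irf7, 93.5% for Irf5, 89.9% for Irf9 and 77.7% for Irf3. The number difference was larger than the cell type difference for 5 of the 7 genes and for 64.1% of all genes. Irf5 and Irf7 are among the 5, and their values describe signal near background. Effects of separate cultures, of array handling and of separate data processing would all follow the number and cannot be told apart.

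**Figure D3:**
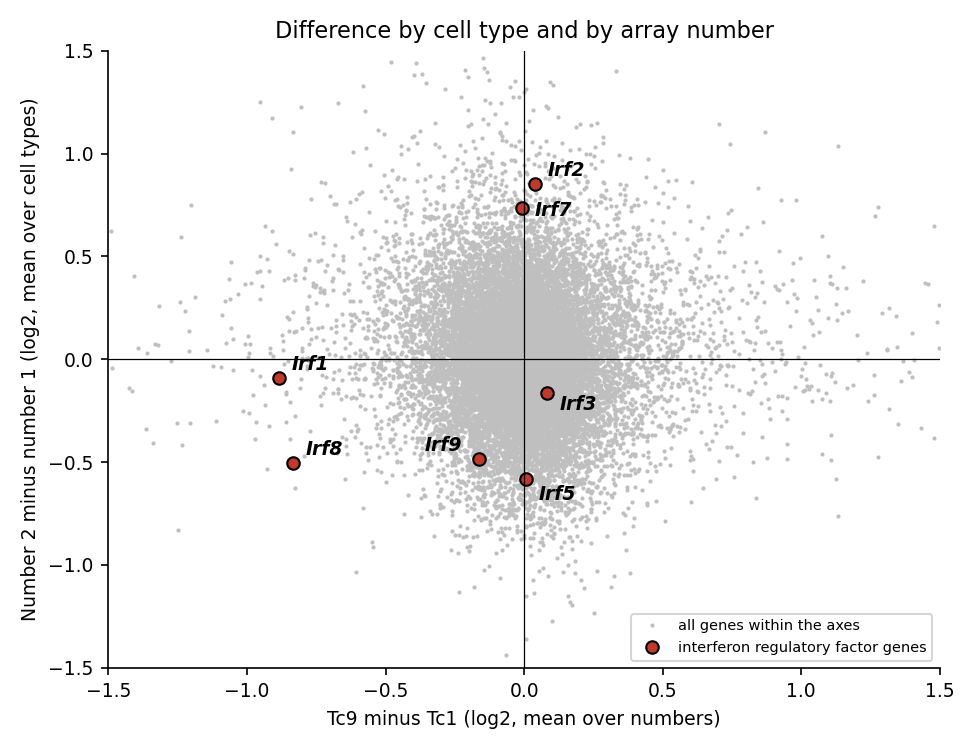
Each gene's mean difference between Tc9 and Tc1 (horizontal, log2) against its mean difference between arrays numbered 2 and 1 (vertical, log2), grey for all genes within the axes and red for the 7 genes. Irf1 lies near the horizontal axis at -0.88, Irf8 is displaced both ways, and Irf2, Irf7, Irf5 and Irf9 are displaced mainly along the vertical axis.

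Irf4, the family member induced by T cell receptor signals and needed by interleukin 9 producing T helper cells, had 3203 and 3096 in Tc9 against 2799 and 2760 in Tc1. Its log2 change of 0.18 ± 0.11 (SE) was not called (limma adjusted p = 1.00). Both Tc9 arrays were above both Tc1 arrays. The share of all genes split this way was not counted, and 15.1% were split with Tc9 lower. With the block the limma adjusted p of Irf4 was 0.00572. That blocked call was lost without the intensity trend (0.376).

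The genes whose pattern over the 4 arrays was nearest to that of Irf1 were Il2, Gm1966 and Pcgf5. Likeness was the Euclidean distance between log2 values centred on each gene's mean over the 4 arrays, among 7325 genes above the negative-control percentile on at least 2 arrays. Il2, the T cell growth factor, at a distance of 0.0836, had 116 and 95.6 in Tc9 against 211 and 199 in Tc1. Both Tc9 values of Il2 lay below the negative-control percentile, so Il2 entered through its Tc1 arrays alone and its distance rests partly on background signal. Gm1966 had 195 and 183 in Tc9 against 390 and 386 in Tc1, at a distance of 0.105. Pcgf5, a Polycomb group protein, had 447 and 414 in Tc9 against 812 and 721 in Tc1, at a distance of 0.114. None of the 3 was called (limma adjusted p = 0.302, 0.0965 and 0.119), and 4 arrays allow many genes to share a pattern.

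Upstream of the factors, the ligand Ifng was lower in Tc9. Ifng, encoding interferon gamma, had 2330 and 2104 in Tc9 against 4699 and 4077 in Tc1, a log2 change of -0.98 ± 0.13 (SE, limma adjusted p = 0.0251). The groups did not overlap, and the call was lost in limma as deposited (adjusted p = 1.00) and without the intensity trend (0.134). Of 19 measured interferon ligand genes Ifng was the only one called, against 0.179% of all genes called lower and 0.385% higher. The other 18 stayed below the negative-control percentile on every array, Ifnb1 and the measured interferon alpha genes included.

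Of 10 measured genes of interferon receptors and their kinases and STATs, 0 were called by limma, with a median log2 change of -0.008 against -0.003 over all genes. At an unadjusted p under 0.05, 1 was higher and 0 lower, against 2.94% of all genes higher and 2.34% lower. With the block 3 were called higher, against 6.34% of all genes. The brightest were Jak2, Jak1 and Ifngr1. Jak2, a kinase of the interferon gamma receptor, averaged 1258 ± 26.6 in Tc9 and 1015 ± 61.4 in Tc1, and Ifngr1, its ligand-binding chain, 733 ± 212 in Tc9 and 729 ± 117 in Tc1 (SD, n = 2 each). Jak1, the partner kinase, averaged 869 ± 409 in Tc9 and 656 ± 231 in Tc1. Ifngr2, the other chain, was picked after its values were seen. It had 501 and 608 in Tc9 against 238 and 262 in Tc1. The log2 change was 1.10 ± 0.18 (SE, limma adjusted p = 0.0622, with the block 1.66e-23, or 0.000104 without the trend). Both Tc9 values lay above both Tc1 values, opposite in direction to Ifng, Irf1 and Irf8.

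Among 23 measured genes of nucleic acid sensing and of the activation of IRF3, IRF7 and IRF5, 1 was called lower and 0 higher. Over all genes 0.179% were called lower and 0.385% higher. The median log2 change was -0.15, against -0.003 over all genes. At an unadjusted limma p under 0.05, 1 of the 23 was higher and 6 were lower, against 2.94% and 2.34% of all genes. The 6 were above the negative-control percentile on few arrays: Cgas on 3, Tbkbp1 on 2, Ifih1, Irak2 and Zbp1 on 1 and Unc93b1 on 0. Their falls thus rest partly on background signal. Of the 23 genes, 7 lay below the percentile on all 4 arrays. The called gene was Tbkbp1, an adaptor that binds the kinase TBK1. Tbkbp1 had 84.6 and 90.3 in Tc9 against 280 and 375 in Tc1 (log2 change -1.72 ± 0.23, limma adjusted p = 0.0278). Both Tc9 values lay below the negative-control percentile, so the size of the fall is uncertain, and the call was lost in limma as deposited (adjusted p = 1.00), with median centring (0.0558), with a pseudocount of 64 (0.0522) and without the intensity trend (0.0559). Traf6, the ubiquitin ligase of Toll-like receptor and interleukin 1 signalling, picked after its values were seen, had 1182 and 1317 in Tc9 against 651 and 658 in Tc1 and just missed the threshold (log2 change 0.91 ± 0.14, limma adjusted p = 0.0503). With the block 3 of the 23 were called higher and 8 lower, against 6.34% and 7.37% of all genes.

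Of 22 measured binding partners and inhibitors, 0 were called by limma, and the median log2 change was 0.08. At an unadjusted p under 0.05, 0 were higher and 1 was lower, against 2.94% and 2.34% of all genes. Jund, an AP-1 subunit, averaged 2712 ± 8.91 in Tc9 and 2447 ± 0.610 in Tc1. Kpna2, a nuclear import receptor, averaged 1912 ± 147 in Tc9 and 2103 ± 80.6 in Tc1. Cops2, a COP9 signalosome subunit, averaged 977 ± 280 in Tc9 and 1133 ± 18.7 in Tc1 (SD, n = 2 each). With the block 3 of the 22 were called higher and 3 lower, against 6.34% and 7.37% of all genes.

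Downstream, 4 guanylate-binding protein genes and 4 immunity-related GTPase genes, families induced by interferon gamma, were lower in Tc9. The list of IRF1 and interferon gamma targets had 30 measured genes, of which 9 fell and 0 rose, against 0.179% and 0.385% of all genes. A negative log2 change was found for 26 of them, against 50.7% of all genes, and the median was -0.41 against -0.003 over all genes. The signal of 7 of the 30 did not reach the negative-control percentile on any array. Of the other 23, 20 had a negative log2 change, with a median of -0.47. Over all genes that reached it, 4079 of 7767 were negative, with a median of -0.014. The list was written with earlier results of these data known, so its direction is not independent evidence. The called genes were the guanylate-binding proteins Gbp2, Gbp3, Gbp4 and Gbp7, the immunity-related GTPases Iigp1, Irgm1, Irgm2 and Tgtp2, and the receptor chain Il12rb1. Gbp2, which acts against intracellular microbes, had 789 and 754 in Tc9 against 3264 and 3412 in Tc1 (log2 change -2.09 ± 0.12, limma adjusted p = 0.00179). Irgm2, a GTPase that acts on membranes of intracellular compartments, had 579 and 628 in Tc9 against 1231 and 1304 in Tc1 (log2 change -1.05 ± 0.14, limma adjusted p = 0.0271). Both calls were lost as deposited (limma adjusted p = 0.778 for Gbp2 and 1.00 for Irgm2), and that of Irgm2 also with median centring (0.181) and without the intensity trend (0.0819). Signal shared between the probe sets of these close relatives was not examined. Il12rb1 had 275 and 326 in Tc9 against 662 and 786 in Tc1 (log2 change -1.23 ± 0.18, limma adjusted p = 0.0417). Its call was lost as deposited and, by limma adjusted p, with median centring (0.231) and a pseudocount of 64 (0.0531). It was also lost without the intensity trend (limma adjusted p = 0.0969) and with the robust variance model (0.0503). Not all targets were lower: B2m, the light chain of MHC class I, had a log2 change of -0.03, Psme1, a proteasome activator subunit, 0.001 and Socs1, an inhibitor of interferon signalling, 0.39, and none of these 3, picked after their values were seen, was called. Over the scalings, 0 of the 30 were called with the values as deposited and 7 with median centring, with list medians of -0.42 and -0.44, and 5 were called without the intensity trend. With the block 19 were called lower and 1 higher, against 7.37% and 6.34% of all genes.

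Of 33 measured ISGF3 and type I interferon targets, 0 were called by limma, 30 had a negative log2 change, against 50.7% of all genes, and the median was -0.34. At an unadjusted p under 0.05, 0 were higher and 14 lower, against 2.94% and 2.34% of all genes. The signal of 20 of the 33 did not reach the negative-control percentile on any array. Among the 14, Ifit1, Ifit3, Ifit3b, Ifitm3, Isg15, Oas3, Parp14 and Xaf1 belonged to those 20, so their changes are uncertain. The others of the 14 reached it on at least 2 arrays. The type I list, too, was written with earlier results of these data known. Bst2, the tetherin that holds virus particles, had 1266 and 1147 in Tc9 against 2091 and 1904 in Tc1 (log2 change -0.72 ± 0.13, limma adjusted p = 0.0969). Zc3hav1, an antiviral zinc finger protein, averaged 1050 ± 65.7 in Tc9 and 848 ± 21.4 in Tc1, and Adar, an RNA-editing enzyme, 599 ± 142 in Tc9 and 638 ± 69.6 in Tc1 (SD, n = 2 each). With the block 16 of the 33 were called lower and 1 higher, against 7.37% and 6.34% of all genes. A difference between the gamma and the type I target lists was not tested.

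**Figure D4:**
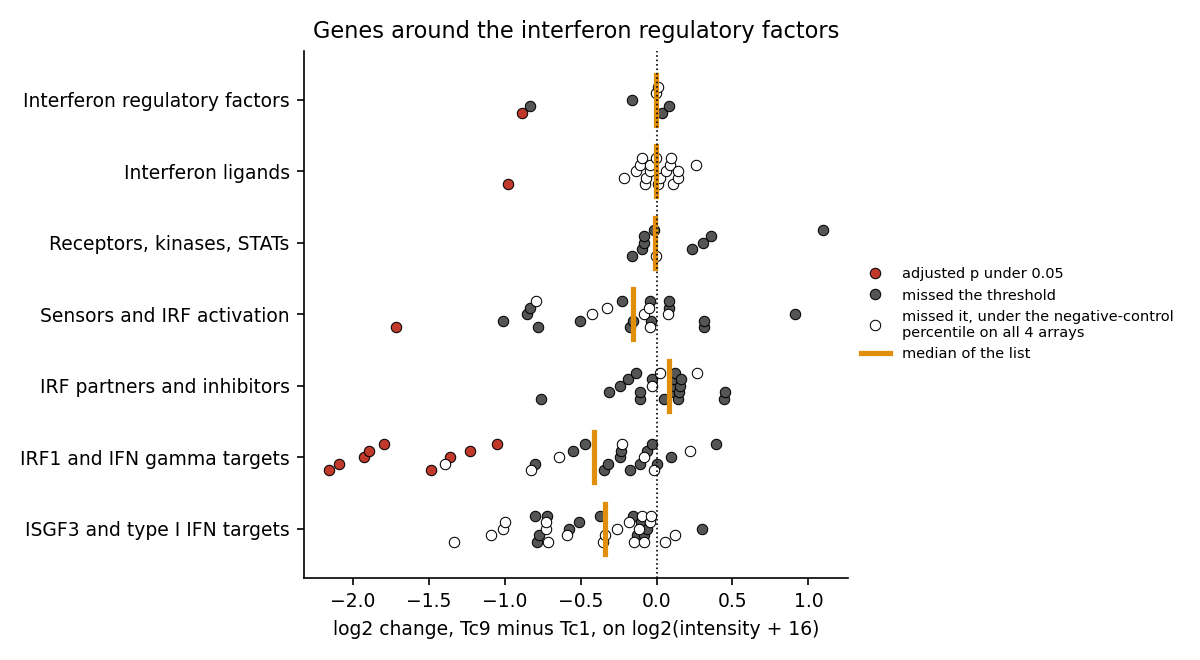
The log2 change, Tc9 minus Tc1, of each measured gene in 7 lists around the factors; red points passed limma at an adjusted p under 0.05, filled grey points missed it, open points missed it and lay below the negative-control percentile on all 4 arrays, and orange bars are list medians. The targets of IRF1 and interferon gamma hold 9 of the called genes, with a median of -0.41.

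The promoters of Gbp2 and Irgm2 are shown as called targets that hold the element the family recognises. The windows are from RefSeq, GRCm38.p6, plus strand, at chr3:142620413-142620712 for Gbp2 and chr11:58214727-58215026 for Irgm2, and capitals mark GAAANNGAAA on either strand and TTCNNNGAA.
Gbp2: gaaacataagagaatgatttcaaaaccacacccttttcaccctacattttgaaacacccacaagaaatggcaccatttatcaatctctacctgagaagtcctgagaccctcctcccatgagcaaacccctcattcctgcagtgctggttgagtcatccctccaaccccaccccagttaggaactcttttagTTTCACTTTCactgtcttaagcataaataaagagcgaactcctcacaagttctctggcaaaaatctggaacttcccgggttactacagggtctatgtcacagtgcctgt
Irgm2: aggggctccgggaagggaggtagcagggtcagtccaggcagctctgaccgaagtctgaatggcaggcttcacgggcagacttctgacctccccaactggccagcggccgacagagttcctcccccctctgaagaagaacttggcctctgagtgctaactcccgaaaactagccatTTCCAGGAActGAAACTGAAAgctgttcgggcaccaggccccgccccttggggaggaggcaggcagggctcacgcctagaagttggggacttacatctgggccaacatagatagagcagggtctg

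The Gbp2 window carries the element on the minus strand, TTTCACTTTC, starting at -59. The Irgm2 window carries TTCCAGGAA at -75 and GAAACTGAAA at -64. Of the 9 called targets 6 matched a promoter window, and all 6 (Gbp2, Gbp3, Gbp7, Irgm1, Irgm2 and Tgtp2) held GAAANNGAAA. Among all measured targets of this list 21 matched, and 11 held it, B2m, Psme1 and Socs1 included, so that the element was also present in targets that were not called. Of the 25 type I targets matched, 13 held it. By gene, the element was in a window of 3.99% of 27025 genes.

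The cells carried general CD8 T cell markers, which do not separate Tc9 from Tc1, and markers of the other cells in which Irf8 and Irf5 are best known were near background. Cd8a averaged 4725 ± 773 in Tc9 and 4954 ± 497 in Tc1 (SD, n = 2 each), all 7 measured genes of the CD8 T cell list lay above the negative-control percentile on all 4 arrays, and Cd4 lay below it on all 4. Il9, the signature cytokine of Tc9 cells, picked after its values were seen, lay below it on all 4 arrays, with 103 and 81.9 in Tc9 against 23.4 and 26.5 in Tc1. It was not called (log2 change 1.40 ± 0.24, SE, limma adjusted p = 0.0679), and both Tc9 values were above both Tc1 values. All 10 measured myeloid markers lay below it on all 4 arrays, with a summed intensity of 375 to 441 in Tc9 and 366 to 452 in Tc1, as did 7 of 8 B cell markers, with 346 to 456 in Tc9 and 295 to 447 in Tc1. The exception, Cd79b, was above it on 1 array. Of 9 dendritic cell markers 7 lay below it on all 4 arrays. The 2 above it were Tcf4 and Ccr9, a gut-homing receptor also made by T cells. Ccr9 rose to a mean of 711 in Tc9, against 236 in Tc1 (log2 change 1.53, limma adjusted p = 0.0123; 1.00 as deposited and 0.0502 with median centring), and the summed dendritic list was 1108 to 1153 in Tc9 and 632 to 722 in Tc1. Ccr9 is part of that sum, and Tcf4 averaged 179 in Tc9 and 211 in Tc1. Of 5 NK cell markers 4 lay below the percentile on all 4 arrays. The exception was Eomes, a transcription factor of NK cells that activated CD8 T cells also make, which fell to 249 and 258 in Tc9, against 1051 and 1050 in Tc1 (log2 change -1.98 ± 0.15, SE, limma adjusted p = 0.00381; 1.00 as deposited). The summed NK cell list, most of which was the Eomes signal, was 349 to 356 in Tc9 and 1160 to 1174 in Tc1. Eomes thus moved in the direction of Ifng, Irf1 and the called targets, and the part of other cells in those results was not tested. Less RNA per cell and fewer cells that express a gene cannot be told apart in these bulk samples.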

How the data were processed

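RNA of 2 Tc9 and 2 Tc1 samples was measured on Affymetrix arrays. The authors deposited 1 intensity per probe set and array. How it was corrected for background and summarised is not given in the sources used here; values from 3.38 up to 13711 point to a linear scale. Of 28846 probe sets, 6640 were controls; of the other 22206, 19572 had 1 gene symbol in the platform annotation, 0 had several and 2634 were unnamed here. The brightest probe set of each gene was kept (19505 genes). The deposited intensity values were quantile normalised over the 22206 probe sets, 16 was added and log2 taken. Tc9 minus Tc1 was tested with limma 3.58.1 in R 4.3.3 (lmFit, eBayes with an intensity trend, Benjamini-Hochberg over all genes, threshold 0.05), with 2 residual and 5.09 prior degrees of freedom, after a check on simulated data. The number of arrays limits the precision. Alternatives changed the scaling, pseudocount, filter, variance model, block, probe set rule and arrays used. The genes named by rule are the 7 factors, Irf4, called genes of the lists or else the 3 brightest, and the 3 nearest in pattern to Irf1. Outside this rule, Ifngr2, Traf6, B2m, Psme1, Socs1 and Il9 were picked after their values were seen. Some other list genes are named with their position relative to the negative-control percentile. The members and lists were chosen with earlier results of these data known. Promoter windows came from RefSeq, GRCm38.p6, matched by symbol for all 7 genes; the genome build of the array is not given in the sources used here.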

Additional observations from a re-analysis of the deposited data

How the results depend on the processing

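Of 17 alternatives, 16 were planned; quantile normalization over named probe sets alone was chosen after seeing the data. Irf1 and Irf8 were lower in Tc9 under all 17. The filters, variance models and blocks cannot move their log2 changes, nor can the probe set rule, since each has 1 probe set. Their groups did not overlap, so leaving out 1 array could not turn the sign. Only the scalings and pseudocounts could have turned it. The Irf1 call ended with the values as deposited (log2 change -0.93, limma adjusted p = 1.00), median centring (-0.95, 0.108), a pseudocount of 64 (-0.85, 0.0506), no intensity trend (-0.88, 0.134) and the robust variance model (-0.88, 0.0534), where 0 of the 7 genes were called. Irf8 was called with the replicate block (-0.83; 1.24e-36, or 0.00105 without the trend), without the Tc9 array numbered 1 (-1.15, 1.85e-05) and without the Tc1 array numbered 2 (-1.02, 0.00295), and 2 of the 7 genes were then called. Each fit without 1 array leaves 1 residual degree of freedom and an infinite prior, and the lone array is assumed to vary like the other group, so these p-values rest on a spread shared over genes. No scaling moved the median log2 change of all genes by over 0.1. The numbers are not stated to pair the arrays. Number 2 minus number 1 in Tc9 and in Tc1 correlated across genes with r = 0.729.

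Leaving out each array in turn gave -0.95 to -0.82 for Irf1 and -1.15 to -0.51 for Irf8, and turned the sign of the 5 others, which ranged from -0.41 to 0.49 (Irf2), -0.013 to 0.18 (Irf3), -0.36 to 0.37 (Irf5), -0.42 to 0.41 (Irf7) and -0.41 to 0.083 (Irf9). Between 1 and 2 of the 7 genes were then called. Irf5 also turned to -0.0072 with median centring, and Irf7 to 0.0088 with normalization over all probe sets and to 0.0029 with a pseudocount of 1.

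Over all genes 75 were called higher and 35 lower. These counts became 13 and 3 as deposited, 37 and 19 without the trend, 1236 and 1438 with the replicate block, and 760 and 666 with the block and no trend, and 120 to 167 and 55 to 124 without 1 array. With median centring 48 were higher and 29 lower. Irf5 and Irf7 were too dim for the filter on the negative controls and have no value there. The cause of these shifts was not tested.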
